A study of Mus musculus with 10 samples.

Results

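The 9 genes described here make up the core of the senescence and p53 checkpoint: Cdkn2a, Cdkn2b, Cdkn1a, Cdkn1b, Cdkn1c, Trp53, Mdm2, Mdm4 and Rb1. They were chosen by name and not by a measured value, though with earlier results of these data known, from the 21755 protein-coding genes of chromosomes 1 to 19 and X. Open chromatin had been mapped by ATAC-seq, in which a transposase cuts accessible DNA, and the positions that came out accessible are called sites. Of the 153924 sites, 252 lay in the bodies of these genes or within 100 kb of them on mm10 (GRCm38). For Cdkn2a and Cdkn2b the 1 Mb on either side was examined as well.

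The cells were immortalised mouse embryo fibroblasts (iMEF) of the line iMEF-Ash2l fl/fl-Cre-ER, in which both Ash2l alleles are floxed and Cre-ER can be switched on. In every group, controls included, exon 4 of Ash2l had been deleted and a lentiviral human ASH2L carrying an N-terminal FKBP12F36V tag and HA epitopes took its place. ASH2L is a core subunit of the KMT2 complexes, which methylate histone H3 at lysine 4, and dTAG-13 recruits an E3 ubiquitin ligase to the tag so that the fusion protein is degraded. There were 10 libraries in 5 groups of 2 replicates: cells without dTAG (given ethanol, per the methods) and cells given dTAG-13 for 30 min, 4 h, 8 h or 24 h. All came from NG3, which is 1 clone, and how the fibroblasts had been immortalised is not given in the sources used here.

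The list gives 1 chromosome, start and end per site, found across all libraries together. It holds no value per library, so it cannot show at which time a site was accessible, and every count below is a description with no replicate error and no test. The depth behind a site is unknown. Of 10 fibroblast marker genes, all 10 had a site within 1 kb of a start, Col1a1, Col1a2, Col3a1 and Prrx1 among them. So did 8 of 12 markers of blood, endothelium, epithelium and pluripotent cells, although Ptprc, Cd3e, Spi1 and Nanog had none. Of all coding genes 71.4% had such a site. The presence of a promoter site in this pooled list thus did not separate the fibroblast markers from all other markers. Widths differed more: the median widest promoter site was 1873.5 bp for the fibroblast markers. It was 382 bp for blood, 706 bp for endothelium, 1241 bp for epithelium and 620 bp for pluripotent cells. Single genes overlapped, with 659 bp at Col1a1 and 1906 bp at the endothelial marker Tek.

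These genes hold 2 connected brakes on the cell cycle. The Cdkn2a locus encodes p16INK4a, which blocks the cyclin D kinases and so keeps RB1 active, and, from another first exon and reading frame, p19ARF, which restrains MDM2 and so frees p53. p53, the product of Trp53, activates the kinase inhibitor gene Cdkn1a and the gene of its own antagonist, Mdm2, while MDM4 also holds p53 in check. Loss of the Cdkn2a locus or of Trp53 is a well-known route by which mouse fibroblasts escape senescence in culture.

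The promoter sequences that bear most on what follows are printed here from RefSeq (GRCm38.p6), from 250 bases before a start to 50 bases after it, 5′ to 3′ along the gene. The table matched 7 of the 9 genes, with 10 starts, and Cdkn1c and Rb1 are named only. The first pair shows the alternative starts of Cdkn2a, with each CpG in capitals. The p19ARF start at chr4:89294570-89294869 (minus strand) held 45 CpG in 300 bases and the p16INK4a start at chr4:89282143-89282442 (minus strand) held 12, against a median of 7 over 32619 promoters.
Cdkn2a, p19ARF start: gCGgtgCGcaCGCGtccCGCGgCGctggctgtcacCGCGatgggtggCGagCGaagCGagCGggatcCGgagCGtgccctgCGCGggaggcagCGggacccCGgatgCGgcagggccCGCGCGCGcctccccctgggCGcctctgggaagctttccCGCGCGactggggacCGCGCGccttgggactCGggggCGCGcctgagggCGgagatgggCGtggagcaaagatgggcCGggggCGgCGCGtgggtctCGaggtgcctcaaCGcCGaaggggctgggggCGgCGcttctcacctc
Cdkn2a, p16INK4a start: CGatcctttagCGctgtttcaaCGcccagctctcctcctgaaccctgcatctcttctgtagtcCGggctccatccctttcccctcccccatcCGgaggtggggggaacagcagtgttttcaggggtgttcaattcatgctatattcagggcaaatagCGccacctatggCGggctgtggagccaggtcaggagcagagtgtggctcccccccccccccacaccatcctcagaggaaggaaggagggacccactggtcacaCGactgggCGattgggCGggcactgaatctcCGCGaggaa
The next pair shows the outer and the inner start of Cdkn1a. The outer start, at chr17:29090729-29091028 (plus strand), held 2 CpG, and its capitals mark a p53 element, the 20-base pair of decamers that p53 binds. The inner start, at chr17:29093519-29093818 (plus strand), held 23 CpG, in capitals.
Cdkn1a, outer start: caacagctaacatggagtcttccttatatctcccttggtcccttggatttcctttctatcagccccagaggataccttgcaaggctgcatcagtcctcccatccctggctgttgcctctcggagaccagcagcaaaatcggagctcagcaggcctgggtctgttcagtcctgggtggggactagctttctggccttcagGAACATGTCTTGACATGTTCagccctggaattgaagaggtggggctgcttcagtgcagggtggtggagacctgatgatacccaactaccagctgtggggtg
Cdkn1a, inner start: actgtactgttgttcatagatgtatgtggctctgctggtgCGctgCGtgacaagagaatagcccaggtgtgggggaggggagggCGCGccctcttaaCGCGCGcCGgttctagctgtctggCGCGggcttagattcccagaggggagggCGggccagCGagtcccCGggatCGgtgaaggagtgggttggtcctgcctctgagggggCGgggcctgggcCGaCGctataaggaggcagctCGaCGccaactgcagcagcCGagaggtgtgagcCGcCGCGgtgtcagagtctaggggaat
The last is the Mdm2 promoter at chr10:117710709-117711008 (minus strand), with its 35 CpG in capitals.
Mdm2: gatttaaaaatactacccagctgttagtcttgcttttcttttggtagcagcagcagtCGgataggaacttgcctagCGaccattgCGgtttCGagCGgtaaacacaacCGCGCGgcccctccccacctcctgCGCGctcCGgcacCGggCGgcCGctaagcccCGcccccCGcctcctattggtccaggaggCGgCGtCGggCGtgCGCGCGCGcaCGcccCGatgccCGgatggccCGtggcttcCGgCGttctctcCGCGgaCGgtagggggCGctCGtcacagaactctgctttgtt
Of these 5 windows, 4 lay wholly inside a site. The outer Cdkn1a window had 0 of its 300 bases in a site.

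Each of the 9 genes carried an accessible site no further than 1 kb from 1 or more of its annotated starts. The background was 71.4% of the 21755 coding genes. A CpG-rich start (a 500-base window with a GC content of at least 0.55 and an observed to expected CpG ratio of at least 0.65) was found at 8 of the 9, all but Trp53, and 95.8% of the 13049 coding genes with such a start had a site. The 9 of 9 is thus close to what genes of this promoter type show in general. At the outermost start, 7 of 9 had a site, against 66.7% of all coding genes, and the exceptions were Cdkn1a and Mdm4, whose sites lay over inner starts. Of the 46 annotated starts of the 9 genes, 33 had a site within 1 kb, among them 8 of 8 at Mdm2 and 7 of 13 at Mdm4. Over the starts of all gene types, a site was present at 94.4% of CpG-rich starts and 25.6% of other starts.

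The genes differed in the width of that site. The widest promoter site measured 2527 bp at Cdkn1a, 2163 bp at Rb1, 1956 bp at Mdm2 and 1930 bp at Cdkn2a. It measured 1730 bp at Trp53, 1666 bp at Cdkn1b and 1500 bp at Cdkn2b, and only 1044 bp at Mdm4 and 981 bp at Cdkn1c. Over the 15530 coding genes with a promoter site the median was 1412 bp and the middle 50% of genes ran from 1107 to 1753 bp. Cdkn1a therefore stood at the 96.6th percentile of these genes and Cdkn1c at the 17.9th, and 7 of the 9 genes lay above the median.

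**Figure D1:**
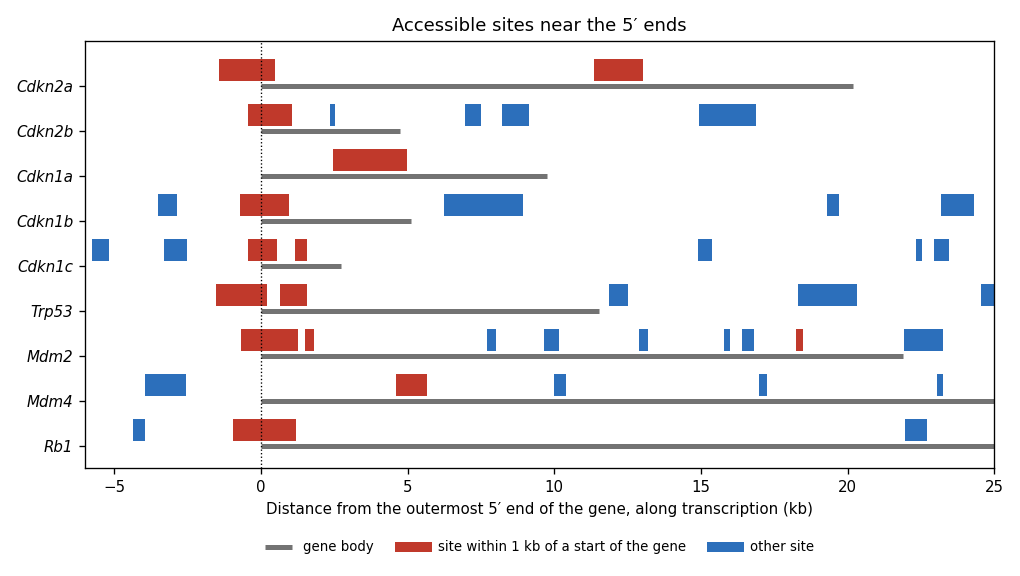
Sites from 6 kb before to 25 kb after the outermost 5′ end of each gene, in kb along transcription, as boxes drawn to scale above a grey line for the gene body, cut at 25 kb for Mdm4 and Rb1. Red boxes lie within 1 kb of an annotated start of the gene, and at Cdkn1a and Mdm4 the first of these lies inside the gene, away from the outermost start.

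At Cdkn2a (ENSMUSG00000044303, chr4:89274471-89294653, minus strand) there were 2 sites, 1 at each start. The site over the p19ARF start, at chr4:89294169-89296098, was 1930 bp wide with a GC fraction of 0.637 and an observed to expected CpG ratio of 0.867. The site over the p16INK4a start, at chr4:89281615-89283302, was 1688 bp wide with a GC fraction of 0.483 and a ratio of 0.508. Both starts of the locus were thus in the list with wide sites, though their base composition differed. The p19ARF site held the E2F match TTTCCCGC, visible in the printed promoter as ctttccCGCGCG, whereas the p16INK4a site held no E2F, p53 or AP-1 match.

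Cdkn2b encodes p15INK4b, the kinase inhibitor next to p16INK4a, and lies at chr4:89306299-89311039 (minus strand). Its start was covered by a 1500 bp site at chr4:89309985-89311484, and a 181 bp site at chr4:89308506-89308686 lay in its intron. Within 100 kb of the bodies there were 34 sites for Cdkn2a and 31 for Cdkn2b, of which 28 were the same sites, since the genes are neighbours. Most of them lay outside coding genes, 23 of 34 and 25 of 31. An AP-1 match, the motif of FOS and JUN dimers (TGACTCA or TGAGTCA), was present in 13 of the 34 Cdkn2a sites (38.2%), in 11 of the 31 Cdkn2b sites (35.5%) and in 29.4% of all sites.

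The wider Cdkn2 region was examined for a stretch without any site. Between 1 Mb before Cdkn2a and 1 Mb beyond Cdkn2b (chr4:88274471-90311039, 2036569 bp) there were 202 sites, or 99.19 per Mb. Tiles of the same length had a median of 54.01 per Mb on chromosome 4 (75 tiles) and 61.38 per Mb on all autosomes (1178 tiles), and 88.5% of the autosomal tiles held fewer sites per Mb. In the 36569 bp from one end of Cdkn2a to the far end of Cdkn2b there were 6 sites. No stretch without sites therefore included either gene.

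The longest step between neighbouring sites in this region was 108811 bp, from 89894793 to 90003603 of chromosome 4. It began 583754 bp beyond Cdkn2b, held 0 coding genes and no unsequenced bases, and 1.27% of the 153643 steps in the genome were longer. The nearest coding genes with a promoter site on its sides were Dmrta1, 200021 bp before it, and Elavl2, 1247160 bp beyond it. Of the steps in or next to the bodies of Cdkn2a and Cdkn2b, the longest was 37048 bp, just upstream of the Cdkn2b promoter site. That is longer than the median step of 7152 bp, but 7.67% of all steps were longer still. Copy number was not measured, and a list of positions does not tell alleles apart.

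The sites of the region were unevenly spread. In successive 100 kb bins moving away from Cdkn2a towards Mtap, there were 15, 14, 18, 23, 17, 13, 3, 11, 12 and 9 sites. Moving away from Cdkn2b towards Dmrta1, there were 16, 18, 7, 8, 3, 3, 1, 1, 3 and 1. The median of the 23987 autosomal bins was 6 and their 95th percentile 15. The Mtap side, with 135 sites in 1 Mb, was thus above the median in 9 of its 10 bins, while the Dmrta1 side, with 62, dropped below it from 400 kb outward.

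**Figure D2:**
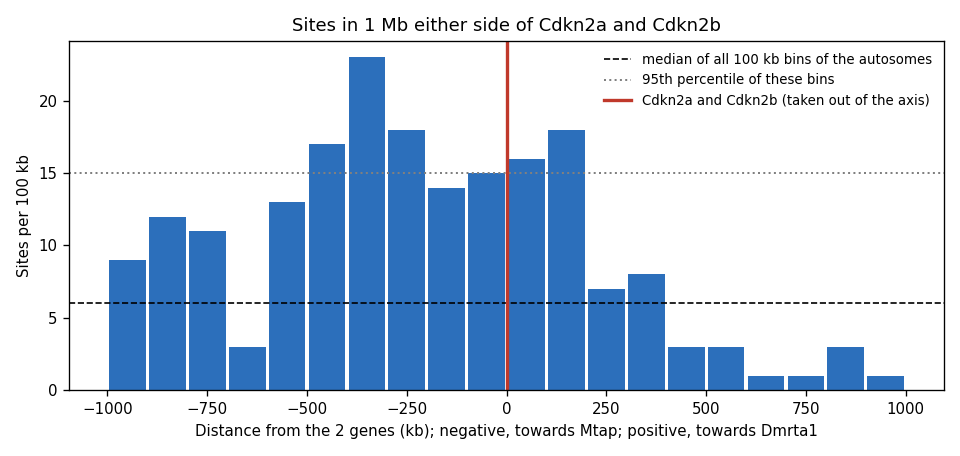
Number of sites (y axis) in each 100 kb bin by distance in kb (x axis) from Cdkn2a and Cdkn2b, whose own 36569 bp are taken out at the red line. The dashed and dotted lines are the median (6) and the 95th percentile (15) of the autosomal bins, and the 4 bins next to the genes, 2 on each side, hold 14 to 18 sites each.

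Within this region 22 of 29 CpG-rich starts had a site (75.9%), compared with 94.4% of the 48232 CpG-rich starts genome-wide and 25.6% of the 82356 other starts. The 7 without a site lay at predicted Gm genes, of which the nearest to Cdkn2a was 474.2 kb away, beyond Mtap. Of the 40 coding genes, 18 had a promoter site. The type I interferon family, antiviral cytokine genes that sit between Hacd4 and Mtap, contributed 17 named genes to the 40, and only Ifna1, Ifnb1 and Ifnz of them had a promoter site. The 358.2 kb span of that family nevertheless held 39 sites. Predicted Gm genes within the span were not counted in the family, and some of them had a promoter site.

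Cdkn1a encodes p21, the kinase inhibitor through which p53 stops the cycle, and lies at chr17:29090976-29100727 (plus strand). Its body held a single site, chr17:29093416-29095942, which covered 2 inner starts and a start of the overlapping gene AC167363.2. Nothing lay within 1 kb of its outermost start. The p53 element printed above, at chr17:29090928-29090947 and 48 bp before the outermost start, has 1 mismatch to the consensus, and the nearest site began 2469 bp from it. Within 100 kb there were 31 sites, 13 of them at promoters (41.9%), against 17.2% of all sites. This gene is also annotated on an alternate sequence of the assembly, and how reads that match both were handled is not given in the sources used here.

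Cdkn1b encodes p27, which restrains cyclin E and A kinases in resting cells, and lies at chr6:134920401-134925513 (plus strand). A 1666 bp site at chr6:134919699-134921364 covered both of its starts. The widest of its 28 sites was not at its own promoter but shortly beyond its end, a 2685 bp site at chr6:134926657-134929341 within 1 kb of a start of another annotated gene. Cdkn1c encodes p57, an imprinted inhibitor of the same family, and lies at chr7:143458339-143461050 (minus strand). It had sites of 981 bp at chr7:143460499-143461479 and 391 bp at chr7:143459495-143459885, and its widest promoter site was the narrowest of the 9 genes, although all 5 of its starts were CpG-rich. Of its 24 sites, 3 held a CTCF match, the motif of the insulator protein CTCF. Mdm4 had more, 4 of 25 sites, so the match did not set Cdkn1c apart. Trp53 had 2 of 28 and Rb1 1 of 31, while Cdkn1a, Cdkn1b, Cdkn2a, Cdkn2b and Mdm2 had 0. Over the autosomes and X, 6899 of 153663 sites held a match.

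Trp53 lies at chr11:69580359-69591873 (plus strand). A 1730 bp site at chr11:69578842-69580571 covered 3 of its 4 starts and also the start of Wrap53, the gene read in the opposite direction. A 945 bp site followed at chr11:69580994-69581938, and the rest of the body held none. Its surroundings were rich in promoters, with 14 of its 28 sites (50%) at a start of some gene against 17.2% of all sites. An AP-1 match was present in 2 of these 28 sites (7.14%), the lowest share of the 9 genes, against 29.4% of all sites and 21.8% of promoter sites. Trp53 was also the gene with the widest sites around it: within 500 kb of its start the median width was 886 bp, compared with 437.5 to 690 bp for the other 8 genes and a median of 650 bp over all coding genes.

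Mdm2 encodes the ubiquitin ligase that marks p53 for destruction and lies at chr10:117688875-117710758 (minus strand). The widest of its 3 promoter sites, chr10:117709485-117711440, was 1956 bp wide and covered 7 of its 8 starts. The body held 7 further sites, all narrow, of 207 to 510 bp, of which those of 253 and 310 bp also lay within 1 kb of a start. Within 100 kb there were 48 sites, the most of the 9 genes, or 216.3 per Mb, which ranked 76 of 21755 coding genes. Of the 48 sites 9 consisted of repeat-masked sequence over more than 50% of their length (18.8%), compared with 5.5% of all sites and 8.68% of all sites narrower than the median width of 619 bp. This share was higher at Trp53 (6 of 28, 21.4%) and ran from 0% at Cdkn1c to 14.7% at Cdkn2a for the other 7 genes, so it did not set Mdm2 apart.

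The high count was not limited to the gene. The 1 Mb bin that holds Mdm2 (chr10:117000001-118000000) had 215 sites, the highest of 2564 bins, whose median was 59. Of the 10 highest bins, 9 were on chromosome 10. Bins centred 3 and 4 Mb before the Mdm2 start held 212 and 203 sites, and the count was 41 at 20 Mb before and 28 at 7 Mb beyond it. The 28 was a local dip: the count was 112 at 9 Mb, 130 at 10 Mb and 21 at 12 Mb beyond. Of the 11 other coding genes within 500 kb of the Mdm2 start, 7 ranked above Mdm2 by sites per Mb, from Lyz2 at 11 to 9530003J23Rik at 48. The other 4 ranked below it: Rap1b at 120, the adjacent Cpm at 128, Il22 at 1095 and Mdm1 at 2070. The sites of the bin were narrow, with a median width of 443 bp. Counting only sites of at least 619 bp, the bin held 85 and ranked 14, against 91 sites and rank 4 for the bin of Trp53. By that count Mdm2 itself stood at the 91.64th percentile of coding genes, close to Trp53 at the 91.36th, instead of the 99.65th. These bins were chosen after the density at Mdm2 had been seen.

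**Figure D3:**
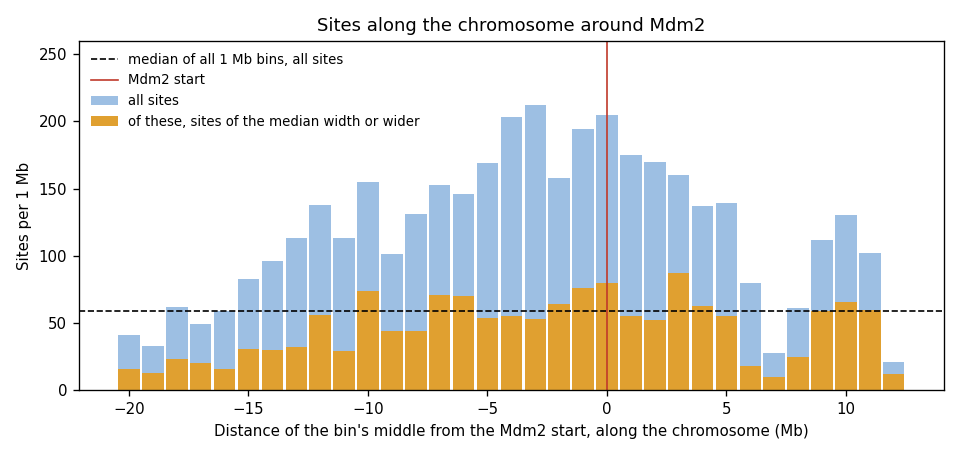
Number of sites (y axis) in 1 Mb bins by distance in Mb (x axis) from the Mdm2 start, negative towards the start of the chromosome; the orange part of each bar counts sites of at least 619 bp. The bin centred on Mdm2 holds 205 sites, 80 of them at least 619 bp wide, against the genome median of 59 (dashed line).

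Mdm4 encodes the relative of MDM2 that masks the activation domain of p53, and lies at chr1:132959484-133030561 (minus strand). Its only promoter site, chr1:133024898-133025941, covered 7 of 13 starts, all of them inside the annotated gene. The body held 8 sites, and the longest step touching it was 17879 bp. Rb1 encodes RB1, which holds E2F factors inactive, and lies at chr14:73183673-73325822 (minus strand). A 2163 bp site at chr14:73324627-73326789 covered 2 of its 6 starts, and it was the only promoter site of the 9 genes with 2 E2F matches. A 2026 bp site at chr14:73237634-73239659, inside the gene, covered the start of Lpar6, a receptor gene within Rb1. The other 10 of the 12 sites in the body were intronic and 252 to 1205 bp wide.

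Around the genes, all 9 had more sites per Mb than the median coding gene, counting the body and 100 kb on each side. The values were 216.3 at Mdm2, 154.4 at Cdkn2a, 151.4 at Cdkn2b, 147.8 at Cdkn1a, 136.5 at Cdkn1b, 132.4 at Trp53, 118.4 at Cdkn1c, 92.22 at Mdm4 and 90.6 at Rb1. The median of the 9 was 136.51 per Mb, and that of all coding genes 85.39. Mdm4 and Rb1 stood near the middle of all genes, at the 55.7th and 54.34th percentile. With sites of at least 619 bp alone, 7 of the 9 genes lay above the median of 45.81 per Mb, and Cdkn1c (39.46) and Rb1 (40.92) did not.

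**Figure D4:**
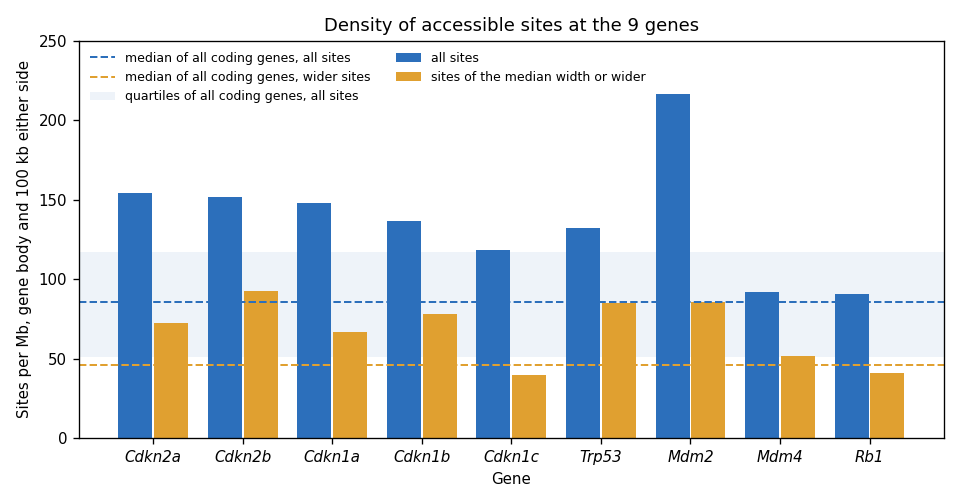
Sites per Mb in the body of each gene and 100 kb either side, for all sites (blue) and for sites of at least 619 bp (orange). Dashed lines are the medians over 21755 coding genes and the shaded band spans the quartiles for all sites; every blue bar lies above its line, while the orange bars of Cdkn1c and Rb1 lie below theirs.

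Of the 252 sites, 71 (28.2%) lay within 1 kb of a start of some gene, against 17.2% of all sites. The windows were set around genes and include the genes' own promoter sites, so part of this difference follows from that choice. The same limit applies to the shares given above for Cdkn1a and Trp53. A further 78 (31%) lay in introns, 8 (3.17%) in exons and 95 (37.7%) outside coding genes, classes that were not counted over the whole list. Promoter sites were the widest, with a median of 988 bp, and intronic sites the narrowest, at 416.5 bp. In the bodies and at the starts of the 9 genes there were 38 sites. The 15 within 1 kb of the genes' own starts had a median width of 1666 bp. The other 23 had a median of 434 bp. In the list, the median was 1061 bp for promoter sites, those of noncoding genes included, and 565 bp for all other sites. The widest promoter site per gene had a median of 1730 bp for the 9 genes and 1412 bp for all coding genes with one.

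**Figure D5:**
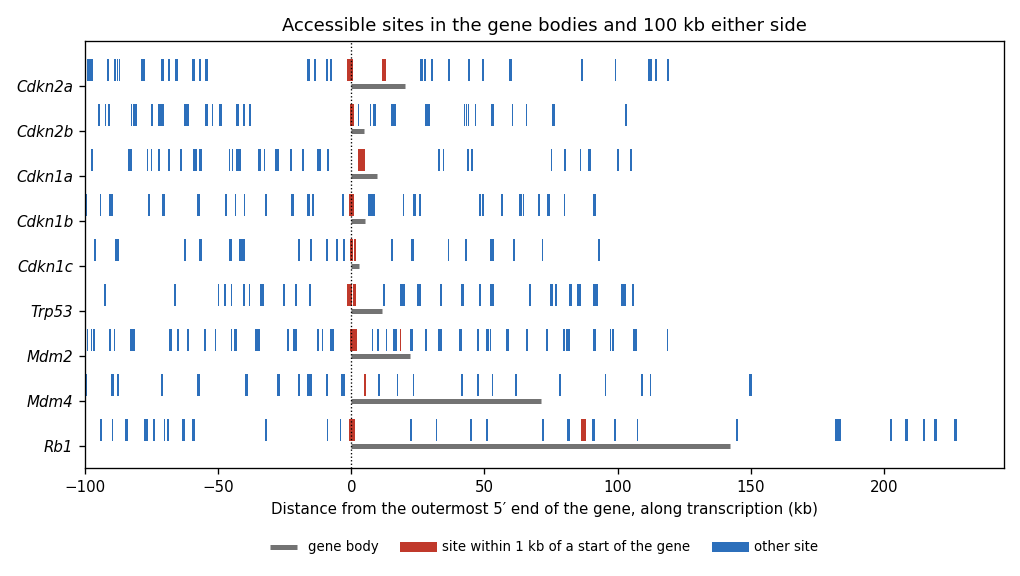
All sites in the body of each gene and 100 kb either side, by distance in kb along transcription from its outermost 5′ end, with gene bodies in grey and sites within 1 kb of an own start in red; boxes narrower than 0.6 kb are drawn at that width. Rows of Mdm2 are the densest, with 48 sites, and Cdkn1c has 24.

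A p53 element was counted where a 20-base stretch differed from the consensus at no more than 2 positions, with the C and G of each core kept, on either strand. Of the 38 sites in the bodies and at the starts, 3 held such an element, and 0.947% of all sites did. Mdm4 had an overlapping pair, sharing 10 bases, in an intronic site of 393 bp at chr1:133020177-133020569. Rb1 had an element in an intronic site of 1205 bp at chr14:73234334-73235538 and another in the Lpar6 promoter site. They are shown with the CNNG cores in capitals, beside the element of Cdkn1a.
Mdm4, chr1:133020295-133020314: gggCTTGtctggcCTTGtct
Mdm4, chr1:133020305-133020324: tgaCTTGtctgggCTTGtct
Rb1, chr14:73234771-73234790: aaaCTAGcctggaCAAGaca
Rb1, chr14:73238053-73238072: aagCATGttcgcgCTTGctg
Cdkn1a, chr17:29090928-29090947, outside any site: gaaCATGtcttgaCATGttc
The Mdm4 elements had 1 mismatch each and the Rb1 elements 2. Among sites within 10% of the same width, an element was held by 0.574% of 11667 for the Mdm4 site, by 1.69% of 12952 for the first Rb1 site and by 1.91% of 2926 for the Lpar6 site. In the bodies and the 5 kb before them, 6 further elements lay outside any site, 1 each at Cdkn2b, Cdkn1a, Mdm2 and Mdm4 and 2 at Rb1, at 87 to 2469 bp from the nearest site. Within 100 kb of the 9 genes, those 3 sites included, 3 of 71 promoter sites held an element (4.23%, against 1.21% of all promoter sites). Of the 181 other sites, 4 did (2.21%, against 0.892%). Outside the bodies and starts, 1 of these sites lay before Mdm2 (chr10:117717361-117718724). Another 2 lay around Cdkn1a (chr17:29078084-29079451 and chr17:29176803-29177327), and 1 within 100 kb of both Cdkn2a and Cdkn2b. A match is a stretch of letters and not a bound site, and no match says only that these letters are not in the window.

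An E2F match (TTTCCCGC, TTTCGCGC, TTTGCCGC or TTTGGCGC on either strand) was found in 3 of the 15 sites at the genes' own starts, those of Cdkn2a (p19ARF), Cdkn1a and Rb1. Among promoter sites within 10% of their widths, 17.5%, 19.7% and 18.5% held one. Over the 71 promoter sites within 100 kb of the 9 genes, 12 held a match (16.9%), against 8.02% of all promoter sites, and 4 of these 12 lay around Trp53. Away from promoters, AP-1 was found in 53 of 181 sites (29.3%) against 31% of all such sites, and the CTCF consensus in 9 of 181 (4.97%) against 4.6%. Both shares were close to the whole list.

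Against 71.4% of coding genes, and 95.8% of those with a CpG-rich start, 43 of 44 further genes of the pathway had a promoter site. These were all 21 p53 target genes (with a median widest promoter site of 1477 bp), 9 of 10 checkpoint kinases and p53 regulators, all 5 related kinase inhibitors and pocket proteins, and all 8 regulators of the Cdkn2a locus. The exception was Trp63, the p53 relative of stratified epithelia, which had 0 promoter sites but 17 sites in its body. Only Ets1, an activator of p16INK4a, had more sites in its body, with 18, and Cbx7, Sesn1 and Usp7 followed with 9 each. The median density of the 44 genes was 93.67 sites per Mb, lower than the 136.51 of the 9 genes and nearer to the 85.39 of all coding genes.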

How the data were processed

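ATAC-seq was performed on 10 libraries of NG3 cells, 2 for each of 5 groups. Per the methods, the authors trimmed reads with Trim Galore, aligned them to mm10 with BWA, filtered them with SAMtools, joined replicate alignments in Picard and used MACS for narrow peaks, with code modified from nf-core. DESeq2 and deepTools were used for steps not analysed here. Versions, thresholds and the rule that joined peaks across samples are not given in the sources used here. The deposited file holds only the positions of the pooled sites, with no score and no value per library. Depth is unknown, and neither a test nor an interval could be made.

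Positions were read as 0-based and printed 1-based. No site ran past a chromosome end, and 242 sites on other sequences were left out of comparisons. Genes were taken from GENCODE M21, sequences from GRCm38.p6. A site was counted where it overlapped a window by at least 1 bp. A promoter window was 1 kb either side of any annotated start. Python 3.11.15, NumPy 2.4.6 and Matplotlib 3.10.9 were used, and the counting was tested on simulated data. The 9 genes and all gene lists were chosen with earlier results of these data known. Genes named besides the 9 were those beside the longest step at Cdkn2a and Cdkn2b, pathway genes without a promoter site and those with the most sites in the body; others named (neighbours of Mdm2, interferon genes, genes sharing a site, markers) were chosen after their values were seen. Alternatives varied windows, site widths, merging, gene models and motif rules.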

Additional observations from a re-analysis of the deposited data

How the results depend on the processing

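The 7 counts and lengths were recomputed under 28 alternatives, of which 18 stayed within 1.5 times the reported value. All 9 genes kept a promoter site with windows of 500 bp or 3 kb and with sites of at least the median width. They also kept it with RefSeq starts, which were found for all 9, although the promoter table used for the printed sequences matched only 7. The 252 sites became 145 within 50 kb and 458 within 200 kb. With sites of at least the median width only, they became 122, the median density of the 9 genes 72.6668 per Mb, and the density of the Cdkn2 region 52.5393 per Mb. The longest step of that region then became 444598 bp, from 90203486 to 90648083, again beyond Cdkn2b and away from both genes. The 3 sites with a p53 element became 8 with 3 mismatches (3.76% of all sites), 1 with 1 mismatch (0.21%) and 1 in the middle 200 bp. They became 12 with 3 mismatches and no core required (17.9%), an alternative added after seeing the data. These shifts follow from counting more or fewer bases, sites or matches. No paired analysis was possible because sites carry positions only, without a measurement in any library. No replicate could therefore be left out, and neither the effect of dTAG-13 nor the depth behind a site can be read from it. Where sites were joined from several peaks, width and number depend on that joining.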
